A study of Xenopus laevis with 12 samples.

Results

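The transcripts described here are 8 maternal mRNAs of the Xenopus laevis oocyte that are known for being enriched towards the animal pole. They are both copies of sox3, foxi2 and grhl1 and the .L copies of zic2 and zfand4, of 51061 genes in the count files. They were found by name in the 2 gene tables that the authors deposited, which pair numbered identifiers with names for 3964 genes, and all 8 passed the filter on low counts. The authors' deposited Staufen table lists all 8, and the hnRNPab table lists 0 of them. The .S copies of zic2 and zfand4 carry no name in either table and were not analysed here.

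RNA came from oocytes pooled over stages II and III. Their lysate was fractionated by size exclusion, and the antibodies were applied to pooled fractions rich in L-bodies. The 3 groups are hnRNPab antibody, Staufen antibody and the IgG control, with 4 libraries each. Whether the libraries of a group stem from different frogs is not stated in the labels, and the spread behind each p-value may therefore be technical. In bulk samples of this kind, a change in the number of particles recovered and a change in the RNA per particle cannot be told apart.

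Oocytes of X. laevis are polarized along an animal-vegetal axis, and maternal mRNAs placed along it help to set up the germ layers. The animal side gives rise to the ectoderm. L-bodies are large RNA-protein condensates that carry mRNAs towards the vegetal cortex, and Staufen and hnRNPab are RNA-binding proteins found in them. Sox3 is an HMG-box factor of early ectoderm and neural tissue, Foxi2 a forkhead activator of ectodermal genes, Grhl1 a Grainyhead factor that activates epidermal genes, and Zic2 a C2H2 zinc finger factor of neural ectoderm. Zfand4, listed in the reference gene table under the older name An1, belongs to the AN1-type zinc finger family. It is not known as a transcription factor, so the group is one of transcription factor mRNAs with 1 exception. The .L and .S copies (homeologs) descend from the genome duplication of X. laevis and lie on separate chromosomes.

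Library size ranged from 14147584 to 22103431 gene counts, and each of the 8 transcripts had at least 1100 counts in every library. Of singly aligned reads, those outside annotated exons were 11% to 12.9% in libraries labelled hnRNPab, 13.4% to 14.8% in the Staufen-labelled and 16.9% to 19.6% in the IgG-labelled libraries. These ranges move with every comparison below, and their part in the results was not tested. Libraries with the same replicate number deviated together from the means of their groups (r of 0.783 to 0.875 over tested genes in 12 pairs, described without a test). The number was therefore also fitted as a block. The 3 libraries numbered 1 stood apart from the others of their groups, with a chi-square per degree of freedom of 32.2 to 61.5 against 14.4 to 22.7 between the other libraries. Of the cell type markers looked for, the tables name 1 of 9 oocyte genes (gdf9.L), 1 of 17 follicle and theca genes (foxo1.L), 1 of 12 blood genes (slc4a1.L) and 0 of 15 stromal and endothelial genes. In libraries labelled hnRNPab against IgG the log2 fold changes of these 3 were 1.46 (gdf9.L), -0.40 (foxo1.L) and 2.13 (slc4a1.L), and the part of other cells in the results was not tested. The other markers have no name here, so the labelled cell type could not be checked against them.

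The labels do not match the deposited tables. For the 448 tested genes listed in both, the log2 fold change in the authors' deposited Staufen table minus that in the hnRNPab table followed the libraries labelled hnRNPab minus those labelled IgG, with a median difference of 0.0148. For the other pairs of labels the median difference was 0.274 to 0.354. All values below are given for libraries as labelled, without taking a label as the antibody used. A gene has a name here only if the authors' tables called it enriched. Comparisons with the libraries labelled hnRNPab or IgG are therefore not independent of how these 8 genes came to be identified. There are 1978 tested genes that the tables list for Staufen only, and 83% of them were called higher in libraries labelled hnRNPab against IgG.

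Levels are given in CPM, gene counts scaled to a common library total, which are not scaled to transcript length, so levels of different genes are not compared. Both copies of sox3 stood out in the libraries labelled hnRNPab. The level of sox3.S (gene13271) in replicates 1 to 4 was 857, 452, 719 and 637 CPM in libraries labelled hnRNPab, 184, 118, 138 and 125 CPM in the Staufen-labelled libraries, and 158, 94.2, 119 and 100.5 CPM in the IgG-labelled libraries. The lowest library labelled hnRNPab lay far above every other library, while the Staufen and IgG ranges overlapped. The level of sox3.L (gene10152) was 698, 368, 473 and 474 CPM in libraries labelled hnRNPab, 278, 167, 192 and 158 CPM in the Staufen-labelled libraries, and 212, 124, 153 and 121 CPM in the IgG-labelled libraries. Again the libraries labelled hnRNPab did not overlap with the rest, and library 1 was the highest of each label. How many of all tested genes separate in this way was not counted. Of genes listed for Staufen only, 96.6% were higher in all 4 replicate numbers in libraries labelled hnRNPab against IgG. The separation is therefore not read as particular to sox3.

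The forkhead gene foxi2 had the same shape. The level of foxi2.S (gene6537) was 454, 299, 358 and 368 CPM in libraries labelled hnRNPab, 126, 95.9, 98.4 and 90.9 CPM in the Staufen-labelled libraries, and 109, 71.5, 71.9 and 74.7 CPM in the IgG-labelled libraries. The level of foxi2.L (gene754) was 242, 141, 190.3 and 191 CPM in libraries labelled hnRNPab, 112, 76.2, 97.7 and 82.9 CPM in the Staufen-labelled libraries, and 103, 62.8, 85.3 and 66.5 CPM in the IgG-labelled libraries. For both copies library 1 was the highest of each label, and the Staufen and IgG ranges overlapped.

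The group means of grhl1.L and grhl1.S followed different orders. The level of grhl1.L (gene15909) was 233, 250.1, 280.2 and 336 CPM in libraries labelled hnRNPab, 82.5, 85.6, 74.0 and 110.5 CPM in the Staufen-labelled libraries, and 102, 126, 120.3 and 157 CPM in the IgG-labelled libraries. Here library 4 was the highest of each label, and each library labelled Staufen lay below the IgG library of its own number. The level of grhl1.S (gene18890) was 417, 357, 422 and 431 CPM in libraries labelled hnRNPab, 155, 146, 136 and 144 CPM in the Staufen-labelled libraries, and 145, 133, 129 and 134 CPM in the IgG-labelled libraries, with overlap between Staufen and IgG.

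The remaining transcripts are known from a single copy here. The level of zic2.L (gene18927) was 159.9, 203, 267 and 233 CPM in libraries labelled hnRNPab, 71.1, 86.1, 91.9 and 76.5 CPM in the Staufen-labelled libraries, and 71.1, 75.9, 85.6 and 74.1 CPM in the IgG-labelled libraries. The Staufen and IgG levels of zic2.L overlapped nearly throughout. The level of zfand4.L (gene18291) was 180.2, 200, 248 and 261 CPM in libraries labelled hnRNPab, 102, 110.3, 118 and 121 CPM in the Staufen-labelled libraries, and 75.2, 79.7, 76.1 and 79.3 CPM in the IgG-labelled libraries. It was the only one of the 8 whose 3 groups did not overlap at all. How common such a separation is among all tested genes was not counted.

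**Figure D1:**
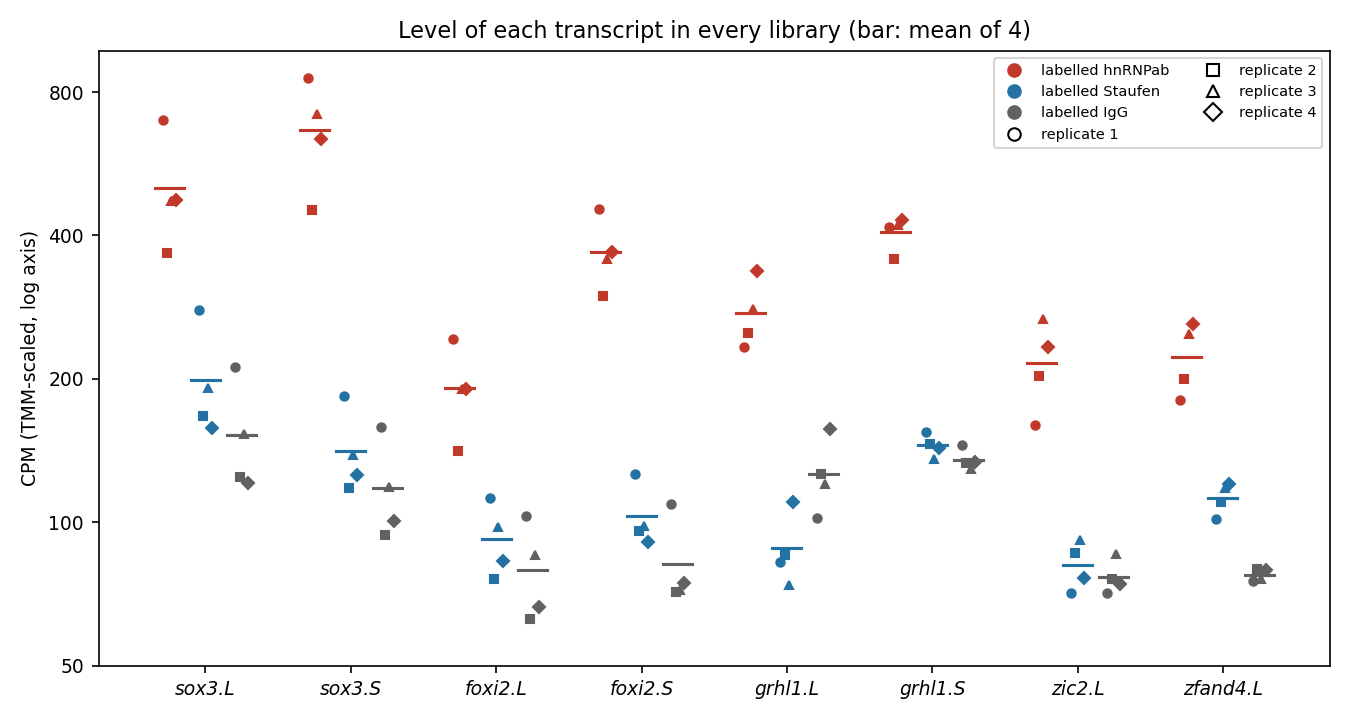
Level of each transcript in every library, in CPM after TMM scaling on a log axis, with 4 libraries per label and a bar at their mean. All 8 transcripts lie higher in the libraries labelled hnRNPab, at means of 191 to 666 CPM, and grhl1.L is the one with a lower mean in Staufen-labelled (88.1 CPM) than in IgG-labelled libraries (126 CPM).

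Together the 8 transcripts took up 2270.0 to 3241.2 CPM in libraries labelled hnRNPab, 885.3 to 1112 CPM in the Staufen-labelled libraries and 767.8 to 975.6 CPM in the IgG-labelled libraries. In edgeR's quasi-likelihood test all 8 were called higher in libraries labelled hnRNPab than in IgG-labelled libraries (8 of 8, where 16.3% of the 20803 tested genes were called higher and 17.4% lower). Since 83% of genes listed for Staufen only were also called higher, this count says little about these 8 in particular, and the differences are described without p-values. The median of their log2 fold changes was 1.55, beside -0.02 over all tested genes and 0.96 over genes listed for Staufen only.

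The largest of these differences were those of sox3.S, at 666 ± 169 CPM in libraries labelled hnRNPab against 118 ± 28.9 CPM in those labelled IgG (SD, n = 4 each), and of foxi2.S, at 369.9 ± 63.9 against 81.9 ± 18.4 CPM. The log2 fold changes were 2.5 (SE 0.228) and 2.18 (SE 0.175). They ranked above 98.4% and 95.6% of the genes listed for Staufen only. The .L copies had lower values, 1.72 for sox3.L (SE 0.248) and 1.27 for foxi2.L (SE 0.196).

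For the other 4 transcripts the log2 fold change was 1.59 for grhl1.S (SE 0.0825), 1.52 for zfand4.L (SE 0.116), 1.49 for zic2.L (SE 0.147) and 1.12 for grhl1.L (SE 0.163). The mean of grhl1.S was 407 ± 33.5 CPM in libraries labelled hnRNPab and 135 ± 6.81 CPM in those labelled IgG (SD, n = 4 each). Within replicate numbers each of the 8 was higher in 4 of 4 pairs, and for sox3.S the 4 log2 differences ran from 2.26 to 2.66. Of all tested genes, 32.6% were higher and 34.8% lower in all 4 pairs, and 96.6% of those listed for Staufen only were higher. With the replicate number as a block all 8 also passed, where 31.3% of tested genes were called higher and 33.3% lower. Of genes listed for Staufen only, 97.2% were then called higher and 0% lower.

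Against the libraries labelled Staufen, those labelled hnRNPab also held more of each transcript. These differences too are described without p-values, because the naming of the genes is tied to the libraries labelled hnRNPab. The edgeR call was made for 8 of 8 members, where 16.3% of tested genes were called higher and 16.5% lower, and 80.1% of genes listed for Staufen only were called higher. With the replicate block it was again 8 of 8, where 31.5% were called higher and 33.1% lower. Of genes listed for Staufen only, 93.9% were then called higher and 1.01% lower. Each of the 8 was higher in 4 of 4 replicate numbers, where 33.2% of tested genes were higher and 34.9% lower in all 4. Among genes listed for Staufen only, 94% were higher and 1.31% lower in all 4, so these counts say little about the 8 in particular. The log2 differences were 2.24 for sox3.S (SE 0.226), 1.85 for foxi2.S (SE 0.173), 1.64 for grhl1.L (SE 0.166), 1.49 for grhl1.S (SE 0.0823), 1.41 for zic2.L (SE 0.146), 1.34 for sox3.L (SE 0.245), 1.05 for foxi2.L (SE 0.196) and 0.98 for zfand4.L (SE 0.115). Their median was 1.45, beside 0.91 over genes listed for Staufen only. In this comparison grhl1.L thus came directly after sox3.S and foxi2.S, whereas against IgG it was the lowest of the 8.

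Over a control that its header does not name, the authors' deposited table for Staufen gives a log2 fold change of 2.22 for sox3.S, 2.11 for foxi2.S, 1.87 for grhl1.S, 1.62 for sox3.L, 1.60 for grhl1.L, 1.28 for zic2.L, 1.23 for zfand4.L and 1.20 for foxi2.L. By fold change sox3.S held rank 117 and foxi2.S rank 156 of the 2457 genes in the authors' deposited table, whereas by p-value grhl1.S came first of the 8, at rank 45. The lowest fold change listed in that deposited table was 0.85 on the log2 scale, so all 8 lie above its lower end. The authors' deposited value for grhl1.L, 1.60, was close to its hnRNPab minus Staufen difference by label, whereas that for foxi2.S, 2.11, was closer to hnRNPab minus IgG. The value for grhl1.S lay above both of these differences (1.49 and 1.59), and that for zic2.L below both (1.41 and 1.49). That for zfand4.L lay between them (0.98 and 1.52). None of the label differences followed the authors' deposited table as a whole (median gaps of 0.468 to 1.26 over 2426 tested genes).

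**Figure D2:**
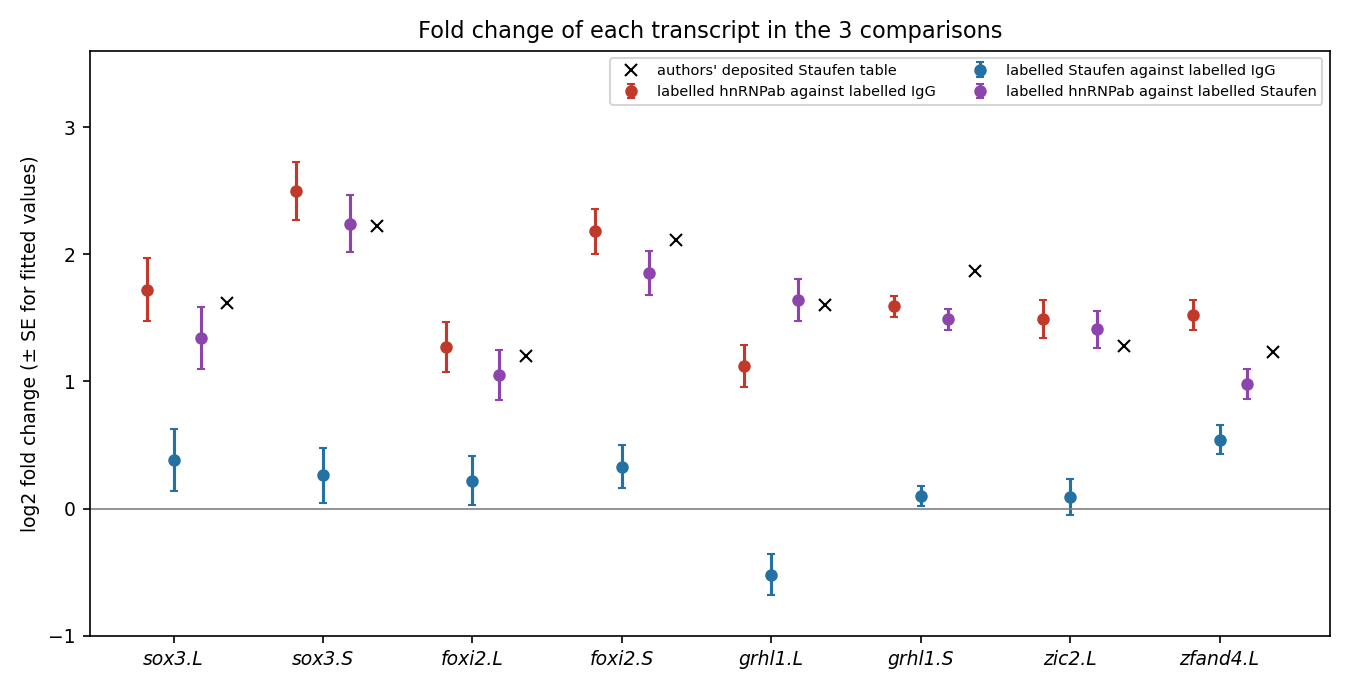
Log2 fold change of each transcript, with its SE, in the 3 comparisons of libraries as labelled, and the value in the authors' deposited Staufen table as a cross. Both sets of values for libraries labelled hnRNPab lie between 0.98 and 2.5, and the values for libraries labelled Staufen against those labelled IgG lie between -0.52 (grhl1.L) and 0.54 (zfand4.L).

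The libraries labelled hnRNPab are no term of the comparison of those labelled Staufen with those labelled IgG. They do add to its estimate of spread. It is not free of the naming, because the difference between the authors' deposited tables followed libraries labelled hnRNPab minus those labelled IgG. Of the 1482 tested genes listed for hnRNPab only, 1.15% were called higher and 21.1% lower, with a median log2 fold change of -0.37. In this comparison zfand4.L rose, at 113 ± 8.49 CPM in libraries labelled Staufen against 77.6 ± 2.27 CPM in those labelled IgG (SD, n = 4 each). The log2 fold change was 0.54 (SE 0.114, edgeR adjusted p = 0.0125), and the call held on leaving out each library in turn (adjusted p 0.00477 to 0.0411). The other 7 did not pass (1 of them, grhl1.L, had an unadjusted p under 0.05, at 0.00758, and was called lower by DESeq2). It also passed as lower without Staufen 4 (edgeR adjusted p = 0.0386) or IgG 1 (0.0381), and foxi2.S passed as higher without the 3 libraries numbered 1 (0.0172), a choice made after seeing the data. The count was thus 1 of 8 higher and 0 lower, where 4.45% of tested genes were called higher and 3.33% lower, and 8.14% and 1.31% of genes listed for Staufen only. The median log2 fold change of the 8 was 0.24, beside -0.01 over all tested genes and 0.07 over genes listed for Staufen only.

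With the replicate number as a block, 5 of the 8 rose and 1 fell, where 19% of tested genes were called higher and 20.5% lower. Among genes listed for Staufen only, 31.2% were then higher and 14.1% lower, and among those listed for hnRNPab only 6.21% and 69.2%. The rises were those of zfand4.L (log2 0.53, SE 0.0633, edgeR adjusted p = 1.55e-08), sox3.L (0.38, SE 0.0587, adjusted p = 1.85e-06), foxi2.S (0.34, SE 0.0592, adjusted p = 1.55e-05), sox3.S (0.27, SE 0.0602, adjusted p = 0.000423) and foxi2.L (0.23, SE 0.0594, adjusted p = 0.00236). The gene that fell was grhl1.L (log2 -0.52, SE 0.0607, edgeR adjusted p = 1.24e-08, against 0.0780 without the block). The values of grhl1.S (0.10, SE 0.0555, adjusted p = 0.150) and zic2.L (0.08, SE 0.0661, adjusted p = 0.355) did not pass in the blocked edgeR fit.

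Within replicate numbers the differences were at most 0.70 in size on the log2 scale, and for some transcripts they varied between numbers. For sox3.L the libraries labelled Staufen exceeded those labelled IgG by 0.40, 0.43, 0.32 and 0.39 on the log2 scale in numbers 1 to 4, and for zfand4.L by 0.44, 0.47, 0.63 and 0.60. For grhl1.L the 4 differences were -0.30, -0.56, -0.70 and -0.51. In all, 7 of the 8 were higher in 4 of 4 pairs and grhl1.L was lower in 4 of 4, although zic2.L differed by 0.00 in number 1. Of tested genes, 24.4% were higher and 26.7% lower in all 4 pairs, and of genes listed for Staufen only 40.4% and 20.2%. The grhl1.L fold change ranked above 0.556% of the genes listed for Staufen only and above 6.67% of all tested genes.

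**Figure D3:**
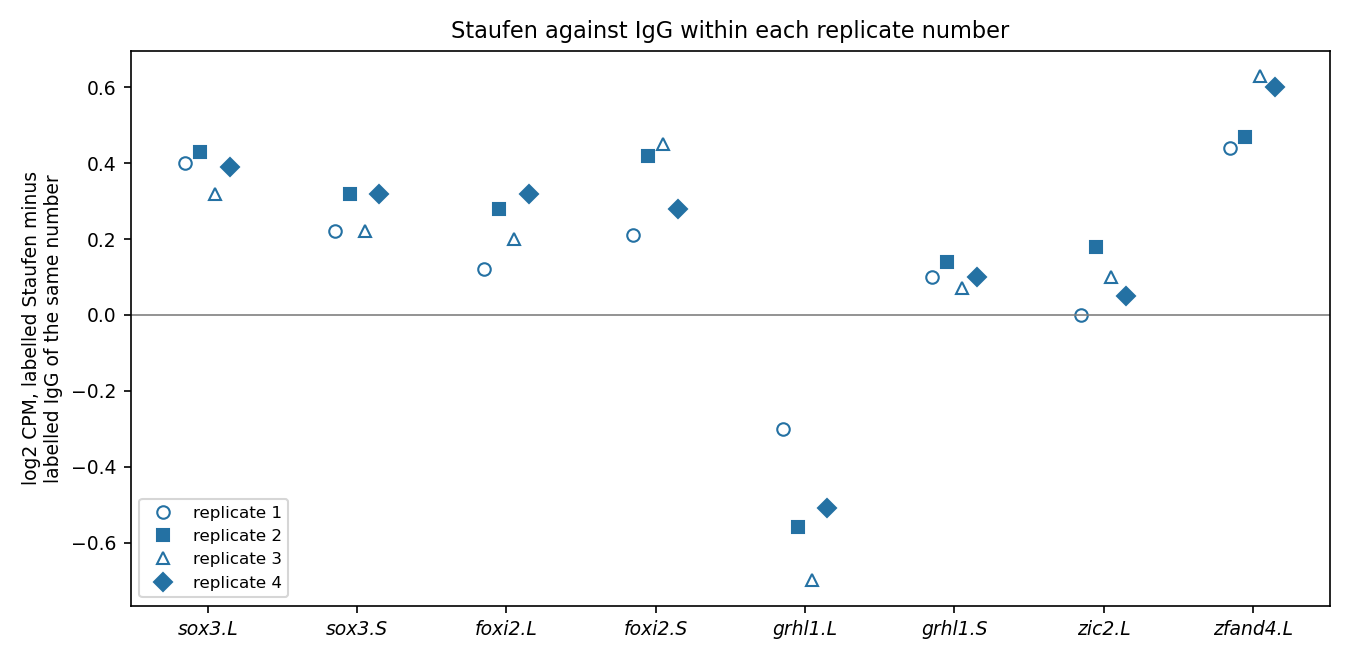
Log2 CPM of the library labelled Staufen minus that of the library labelled IgG with the same replicate number, for each transcript. The 4 values of grhl1.L lie at -0.70 to -0.30 and the other transcripts at 0.00 to 0.63.

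The copies of a gene can be compared within each library as the share of the .S copy among the counts of both, in which library size cancels. Counts are not scaled to length, so a share of 50% does not mean equal numbers of molecules, but the change between groups in the log ratio of the copies does not depend on length. Near-identical copies can take each other's reads, and the strand setting of the counting is not given in the sources used here, so differences between copies are uncertain. Reads aligned to several places were not counted for either copy. Records of such alignment were 24.5% to 27% in libraries labelled hnRNPab, 23.6% to 24.5% in Staufen-labelled and 25.7% to 27.7% in IgG-labelled libraries. Their part in the shares was not tested. For sox3 the share of the .S copy was 55.1%, 55.1%, 60.3% and 57.3% in libraries labelled hnRNPab, 39.8%, 41.3%, 41.9% and 44.3% in the Staufen-labelled libraries, and 42.8%, 43.1%, 43.7% and 45.4% in the IgG-labelled libraries. The .S copy thus held the larger share of the counts in every library labelled hnRNPab and the smaller share in every other library. How many other pairs of copies separate by label in this way was not counted.

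For foxi2 the share of the .S copy was 65.2%, 67.9%, 65.3% and 65.9% in libraries labelled hnRNPab, 52.9%, 55.8%, 50.2% and 52.3% in the Staufen-labelled libraries, and 51.4%, 53.3%, 45.8% and 52.9% in the IgG-labelled libraries. The libraries labelled hnRNPab lay apart from the others, which overlapped. How common such a separation is among other pairs of copies was not counted. For grhl1 it was 64.2%, 58.8%, 60.1% and 56.2% in libraries labelled hnRNPab, 65.3%, 63.1%, 64.7% and 56.5% in the Staufen-labelled libraries, and 58.7%, 51.2%, 51.8% and 45.9% in the IgG-labelled libraries. In grhl1 it was the IgG libraries that were low, with overlap through IgG 1.

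**Figure D4:**
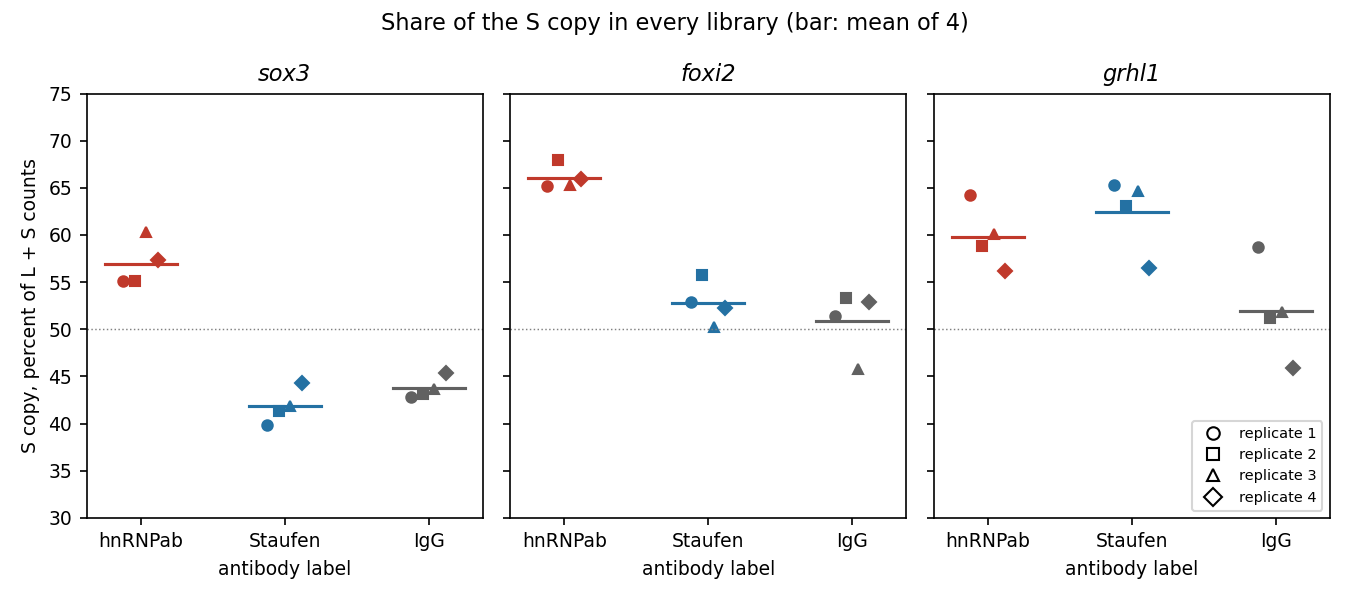
Share of the .S copy among the counts of both copies of sox3, foxi2 and grhl1, in percent, in every library, with a bar at the mean of each label and a dotted line at 50%. The means were 57%, 41.8% and 43.7% for sox3, 66.1%, 52.8% and 50.8% for foxi2 and 59.8%, 62.4% and 51.9% for grhl1 in libraries labelled hnRNPab, Staufen and IgG.

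The ratio of the .L to the .S copy was tested as an interaction of copy and group with edgeR over the 491 pairs of copies that both have a name and passed the filter. In libraries labelled hnRNPab against IgG the ratio was lower for foxi2 (log2 -0.91, SE 0.105, edgeR adjusted p = 6.14e-06), for sox3 (-0.77, SE 0.0843, adjusted p = 4.05e-06) and for grhl1 (-0.46, SE 0.160, adjusted p = 0.0235). The ratio of each was lower in 4 of 4 pairs of libraries. How many of the 491 pairs of copies kept 1 direction in all 4 was not counted. Changed ratios were common among named pairs, with 27.9% called higher and 30.8% lower, and the median size of a change was 0.49. These 491 pairs were not split by the table that lists each copy. Since both copies owe their names to the authors' tables, the p-values of the ratios, here and below, are not independent of that naming. All 3 ratios also passed with the replicate block, where 37.7% were called higher and 40.9% lower. The grhl1 call was lost without hnRNPab 1 (edgeR adjusted p = 0.0744) or IgG 4 (0.0789). An exact permutation test over the 8 libraries compared (4 against 4), adjusted over 9 tests, gave 0.0643 for sox3 and foxi2 and 0.0857 for grhl1. Its smallest possible raw p for 4 against 4 is 0.0286, which sox3 and foxi2 reached.

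In libraries labelled Staufen against IgG the ratio of grhl1 was lower (log2 -0.62, SE 0.161, edgeR adjusted p = 0.0156, lower in 4 of 4 pairs at -0.77 to -0.40), where 8.76% of pairs were called higher and 12.2% lower (22.2% and 29.1% with the replicate block, in which grhl1 again was the 1 of 3 to pass). The exact permutation test gave adjusted p = 0.0857 (raw 0.0571). The ratios of sox3 (0.11, SE 0.0848, edgeR adjusted p = 0.403) and foxi2 (-0.11, SE 0.106, adjusted p = 0.513) did not pass. That of sox3 was higher in 4 of 4 pairs of libraries (0.07 to 0.18), and that of foxi2 was lower in 3 of 4. Against the libraries labelled Staufen, those labelled hnRNPab had lower ratios for sox3 (-0.88, SE 0.0843, edgeR adjusted p = 2.03e-06) and foxi2 (-0.80, SE 0.105, adjusted p = 2.66e-05), where 26.7% of pairs were called higher and 24.6% lower. The grhl1 ratio was at 0.16 (SE 0.160, edgeR adjusted p = 0.440), higher in 4 of 4 pairs of libraries at 0.02 to 0.29. It passed with the replicate block (0.15, edgeR adjusted p = 0.0285), in which 38.1% of pairs were called higher and 38.7% lower. The ratios of sox3 and foxi2 were lower in 4 of 4 pairs of libraries. For these comparisons too it was not counted how many of the 491 pairs of copies kept 1 direction in all 4. The agreement in sign is therefore only a description. Whether the ratio of grhl1 moved differently from those of sox3 and foxi2 was not itself tested.

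Between replicate numbers some of the transcripts varied together and others in opposite directions. Copies of sox3 and foxi2 were high in number 1 under each label, with mean deviations from the group mean of 0.51 for sox3.L, 0.42 for sox3.S, 0.36 for foxi2.L and 0.35 for foxi2.S on the log2 scale. In the same libraries zic2.L was low (-0.23), as were grhl1.L (-0.20) and zfand4.L (-0.16), and grhl1.L was high in number 4 (0.33). With group means removed, the 4 sox3 and foxi2 transcripts correlated with each other at r of 0.874 to 0.970 over 12 libraries, and with grhl1.L, zic2.L and zfand4.L at r of -0.570 to -0.267. With grhl1.S they correlated at r of 0.611 to 0.755. The copies of grhl1 had r = 0.0938 with each other. These values are descriptions, since libraries of 1 number share their deviations across genes.

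**Figure D5:**
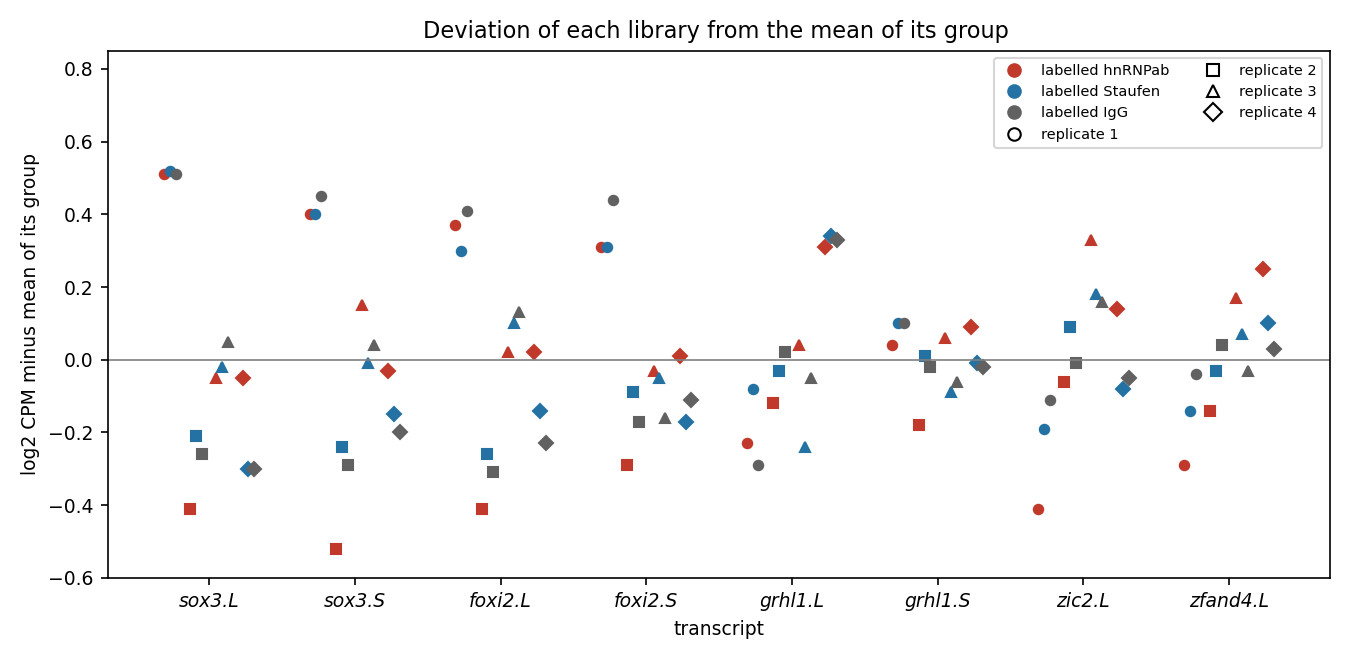
Log2 CPM of each library minus the mean of the 4 libraries of its label, for each transcript, by replicate number. The libraries numbered 1 are the highest for both copies of sox3 and foxi2 under every label, and those numbered 4 are the highest for grhl1.L.

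Other members of the same families were counted as far as the tables name them, and these lists were drawn up with earlier results of these data known. Of 30 other Sox genes in the reference gene table, 5 are named, each listed for Staufen only. In libraries labelled hnRNPab against IgG 4 of the 5 rose and 1 did not pass, with a median log2 fold change of 1.76. This is close to the 83% called higher among all genes listed for Staufen only (16.3% of all tested genes). The most abundant were sox15.L at 99.1 ± 21.6 against 51.6 ± 11.7 CPM (log2 0.94), sox4.L (2.28) and sox4.S (1.76), encoding a SoxC factor, and sox9.L (1.77), encoding a factor of neural crest and cartilage (SD, n = 4 each). In libraries labelled Staufen against IgG 0 of the 5 passed with edgeR and 0 with DESeq2, 1 had an unadjusted p under 0.05, and 2 rose in the fit with the replicate block (sox4.L and sox9.L). Of genes listed for Staufen only, edgeR called 8.14% higher and 1.31% lower without the block, and 31.2% and 14.1% with it. Of all tested genes these were 4.45% and 3.33%, and 19% and 20.5%.

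Of 69 other Fox genes in the reference gene table, 13 are named, of which 3 stand in the Staufen table, 9 in the hnRNPab table and 1 (foxn2.L) in both. In libraries labelled hnRNPab against IgG 3 rose and 7 fell, with 3 not passing, where 16.3% of tested genes were called higher and 17.4% lower. The most abundant were foxh1.L, encoding the nodal-pathway partner of Smads, at 584 ± 84.2 against 163 ± 27.9 CPM (log2 1.84), foxn2.S at 156 ± 14.5 against 303 ± 13.5 CPM (log2 -0.96), foxo3.L (-0.89) and foxn3.L (-1.05) (SD, n = 4 each). The 3 that rose are those listed for Staufen alone, and the 7 that fell are among the 9 listed for hnRNPab alone, so direction here goes with the table that names the gene. In libraries labelled Staufen against IgG foxh1.L rose (log2 0.79, edgeR adjusted p = 0.00395), foxn2.S fell (-0.37, adjusted p = 0.0356) and 11 did not pass. There 4.45% of all tested genes were called higher and 3.33% lower.

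Of 11 other zfand genes, 4 are named. In libraries labelled hnRNPab against IgG zfand5.S (log2 1.27) and zfand5.L (0.47) rose, and zfand3.L (-2.09) and zfand3.S (-1.39) fell. Both zfand5 copies are listed for Staufen only and both zfand3 copies for hnRNPab only. Of all genes listed for Staufen only 83% were called higher, and of those listed for hnRNPab only 82.9% were called lower. Direction here thus also goes with the table that names the gene. In libraries labelled Staufen against IgG zfand3.L fell (log2 -0.45, edgeR adjusted p = 0.0488), and zfand5.L, at 178 ± 14.7 against 140.0 ± 8.26 CPM (SD, n = 4 each), was at 0.35 with an adjusted p of 0.0503. There 21.1% of genes listed for hnRNPab only were called lower, beside 3.33% of all tested genes. No other Zic gene (0 of 9), Grainyhead or CP2 gene (0 of 9) or gene of a short list of other animally enriched mRNAs (0 of 6) has a name here.

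Among 37 genes of a list of early ectoderm and pluripotency factors, 13 are named, of which 9 are listed for Staufen only, 1 for hnRNPab only and 3 for both. In libraries labelled hnRNPab against IgG 10 rose and 1 fell, with a median log2 fold change of 0.79. Of all genes listed for Staufen only 83% were called higher, and of those listed for hnRNPab only 82.9% were called lower, and nothing particular to the list is read from this tally. Among the rises were those of ets2.L (2.51), ets2.S (2.22), tfap2c.S (1.77), klf17.L (1.23), klf4.L (1.22), tead4.L (0.89), klf2.S (0.79), tead1.L (0.65) and klf2.L (0.52), and the fall was that of klf5.S (-1.02). The klf genes encode Krüppel-like factors, the tead genes the DNA-binding partners of Yap1, and ets2 an ETS factor. Values of tead1.S (0.33) and yap1.S (0.01) did not pass. In libraries labelled Staufen against IgG 2 of the 13 rose, 1 fell and 10 did not pass. Of all tested genes 4.45% were called higher and 3.33% lower. The rises were those of tfap2c.S, an AP-2 factor of epidermis and neural crest (log2 1.14, edgeR adjusted p = 0.00108), and ets2.S (0.56, adjusted p = 0.00597).

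The vegetally localized transcripts vegt.S, wnt11b.L, bicc1.S and bicc1.L, also named by the Staufen table, had log2 fold changes of 1.19, 1.52, 1.28 and 0.59 in libraries labelled hnRNPab against IgG, and of 0.51, 0.44, 0.33 and 0.74 in those labelled Staufen against IgG. They are 4 of 17 listed, vegt.S encoding a T-box factor, wnt11b.L a Wnt ligand and the bicc1 copies an RNA-binding protein. All 4 rose in the first comparison and 3 in the second, where wnt11b.L did not pass (edgeR adjusted p = 0.172). Of all genes listed for Staufen only, 83% were called higher in the first comparison and 8.14% in the second, against 16.3% and 4.45% of all tested genes. Their medians of 1.24 and 0.47 stand beside 1.55 and 0.24 for the 8 animally enriched transcripts. No test of a difference between the 2 lists was made.

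Over the 12 libraries, the named genes whose log2 CPM was most like the mean profile of the 8 were slc16a1.S, a monocarboxylate transporter (r = 0.998), ccnb1.S, cyclin B1 (0.998), dnaja3.L, a mitochondrial co-chaperone (0.997), edem1.S, of ER-associated degradation (0.997), and gnai1.S, which encodes an inhibitory G alpha protein (0.997). Of 2521 candidates with a mean of at least 5 CPM, 419 had an r above 0.95, so that a profile of this shape is common among named genes. These correlations share libraries, depth and the selection by the deposited tables, and are given as a description.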

How the data were processed

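Per the labels, RNA immunoprecipitated with hnRNPab antibody, Staufen antibody or IgG was sequenced in 12 libraries, 4 per group. Each library's file gives raw counts by gene, as deposited by the authors and not normalized. Tools named in the submitters' processing notes are HTSeq 0.9.1, STAR 2.6.1b and edgeR. The sources used here do not give the build, annotation or strand setting. Per the file headers, the deposited tables hold log2 fold changes and log2 CPM, an F score, and p-values with adjusted p-values. Gene names came from these tables, and a RefSeq gene table (Xenopus_laevis_v10.1) served to count family members. Reads outside exons (11% to 19.6% of singly aligned reads) and reads shared between genes (0.521% to 0.791%) stayed out of library sizes and tests. So did records of non-unique alignment, which were 23.6% to 27.7% of all records in the count files.

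Counts were analysed in R 4.3.3 with edgeR 4.0.16 (TMM, filterByExpr, 20803 of 51061 genes, group as the only term over all libraries, quasi-likelihood F test, Benjamini-Hochberg adjustment at 0.05). Log2 CPM used a prior count of 2. Ratios of copies were tested as copy by group with each library as a block. Both fits were run on simulated data that held no effect of the replicate number, so their behaviour under such an effect was not tested. Alternatives used DESeq2 1.42.0, limma 3.58.1, RLE scaling, no filter, the compared groups alone, the replicate number as a block, and single libraries left out. The numbers were taken to pair libraries because same-numbered libraries deviated together in each of 12 pairs (r of at least 0.783). Between different numbers r was at most -0.0593. Removing the group means pushes that value down, so the contrast was partly set in advance. The fit without the 3 libraries numbered 1 was chosen after seeing the data.

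The members and lists were chosen with earlier results of these data known. By rule, the text names all 8 members, up to 4 relatives per family by mean CPM, the named copies of the ectoderm list (1 is not reported here), and the 5 genes most like the members in profile. A count of 0 allows up to 3 counts, or 0.136 to 0.212 CPM, which covers counting error only.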

Additional observations from a re-analysis of the deposited data

Results flagged for a closer look

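Of 33 sets of 4 libraries examined (the level of each of the 8 transcripts and the share of the .S copy in 3 pairs, under each label), 1 held a library far from the others. The level of foxi2.S in IgG 1 was 109 CPM against 71.5 to 74.7 CPM in the other libraries labelled IgG, a gap of 0.915 of the whole range, which is above Dixon's 95% critical value for 4 samples. Chance singles out about 5% of such sets. The libraries numbered 1 of the other labels were also the highest for foxi2.S, at 454 CPM for hnRNPab and 126 CPM for Staufen. Without IgG 1, the log2 fold change of foxi2.S in libraries labelled Staufen against IgG was 0.51 (edgeR adjusted p = 0.0635), and without all 3 libraries numbered 1 it was 0.39 (adjusted p = 0.0172).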

How the results depend on the processing

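All 8 transcripts stayed higher in libraries labelled hnRNPab against either other label under each alternative run, and no member reversed its direction in any comparison. In libraries labelled Staufen against IgG, 1 member passed (zfand4.L), 2 with DESeq2 (zfand4.L, and grhl1.L at log2 -0.53, adjusted p = 0.0201), 6 with the replicate block, 2 without the 3 libraries numbered 1 (zfand4.L and foxi2.S), and 1 to 2 on leaving out single libraries. The second was grhl1.L without Staufen 4 (edgeR adjusted p = 0.0386) or IgG 1 (0.0381). The genes called in that comparison numbered 1618, 2616 with DESeq2, 8203 with the block, 2631 without the libraries numbered 1 and 1012 to 1904 without single libraries, with 1012 on leaving out IgG 2. With the block the hnRNPab comparisons called 13442 genes against IgG and 13431 against Staufen, where the fits without it called 7005 and 6837. Calls on copy ratios numbered 3, 1 and 2 for hnRNPab against IgG, Staufen against IgG and hnRNPab against Staufen. They numbered 0 in each with the exact permutation test, in which 2, 0 and 2 pairs had an unadjusted p below 0.05. Those pairs had the smallest possible raw p of that test, 0.0286, which the adjustment raised to 0.0643. A larger change in their ratios could thus not have passed either. The test also left out the replicate numbers. The block changed no other call of a member except the grhl1 ratio in hnRNPab against Staufen. The cause of these differences was not tested. Each transcript had at least 1100 counts in every library.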
